A study of Mus musculus with 10 samples.

Results

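The genes described here encode the proteasome, its assembly factors and its regulators. They are the protein-coding genes whose mouse symbol begins with Psma, Psmb, Psmc, Psmd or Psme followed by a number, together with Psmf1 and the Psmg genes, and without the 3 immunoproteasome genes Psmb8, Psmb9 and Psmb10. The rule used symbols only and no measured value. It took 45 genes of the 38922 in the tables, and all 45 genes of the annotation that fit it were present. RNA was sequenced from whole liver of wild-type male C57BL/6N mice, 6 weeks old. One group of 5 mice was injected intraperitoneally with 0.5 µg/g of an antibody that activates the death receptor CD95 (CD95-Ab), and 5 control mice were injected with saline. All livers were taken after 6 h, so the values describe a single time point in a mixed tissue.

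The proteasome degrades proteins that carry ubiquitin chains. Its 20S core is a barrel of alpha rings, which gate the entrance, and beta rings, which hold the catalytic sites of Psmb5, Psmb6 and Psmb7. The 19S regulatory particle caps the barrel: a ring of Psmc ATPases unfolds the substrate, and Psmd subunits bind and remove ubiquitin. Dedicated chaperones build these parts. The Psmg genes encode factors that guide the alpha ring, and Psmd5, Psmd9 and Psmd10 encode factors that guide the ATPase ring. Psme1 and Psme2 form the PA28 activator, Psme3 encodes a nuclear PA28 protein, Psme4 encodes the activator PA200, and Psmf1 encodes the inhibitor PI31. When proteasome activity is short, the transcription factor encoded by Nfe2l1 is known to raise transcription of the subunit genes through antioxidant response elements (ARE).

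Stretches of 250 bases before the RefSeq transcription start are shown for Psmd10 and Psmd9, the members with the largest increase and the largest decrease, and for the catalytic subunits Psmb5 and Psmb6, which were not called. Each is written 5′ to 3′ from GRCm38.p6, with matches to the ARE core TGACNNNGC or to CCAAT on either strand in capitals.
Psmd10, chrX:140956712-140956961, minus strand: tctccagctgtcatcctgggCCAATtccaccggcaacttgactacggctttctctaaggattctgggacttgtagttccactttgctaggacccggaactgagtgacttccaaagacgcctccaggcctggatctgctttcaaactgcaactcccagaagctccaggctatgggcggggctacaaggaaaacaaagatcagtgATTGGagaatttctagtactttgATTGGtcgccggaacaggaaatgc
Psmd9, chr5:123227940-123228189, plus strand: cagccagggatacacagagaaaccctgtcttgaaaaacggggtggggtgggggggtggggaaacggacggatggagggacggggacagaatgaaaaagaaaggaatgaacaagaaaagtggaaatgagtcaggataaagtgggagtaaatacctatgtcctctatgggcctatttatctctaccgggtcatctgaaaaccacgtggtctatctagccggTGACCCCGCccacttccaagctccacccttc
Psmb5, chr14:54617996-54618245, minus strand: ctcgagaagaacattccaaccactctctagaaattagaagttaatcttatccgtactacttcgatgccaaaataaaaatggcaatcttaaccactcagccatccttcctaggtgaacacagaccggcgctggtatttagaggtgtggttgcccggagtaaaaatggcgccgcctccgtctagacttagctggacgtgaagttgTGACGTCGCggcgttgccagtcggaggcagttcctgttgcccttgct
Psmb6, chr11:70525107-70525356, plus strand: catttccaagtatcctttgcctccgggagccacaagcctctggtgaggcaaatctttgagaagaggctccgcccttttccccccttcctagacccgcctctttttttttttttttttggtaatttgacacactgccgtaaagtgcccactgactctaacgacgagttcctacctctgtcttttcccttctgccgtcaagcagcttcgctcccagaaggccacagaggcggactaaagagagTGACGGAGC
Psmd9, Psmb5 and Psmb6 each held 1 match to the ARE core, beginning 31, 47 and 9 bases before the start. Psmd10 held 3 matches to CCAAT and none to the ARE core. RefSeq windows of 300 bases, which add 50 bases after the start, were found for 37 of the 45 members. Of the 37, 6 members (16.2%) held the ARE core (Psmb5, Psmb6, Psmc6, Psmd12, Psmd9 and Psme4), against 14.0% of all 27025 genes with a window. CCAAT was found in 13 members (35.1%), against 41.1% of all genes. The GC box GGGCGG was found in 22 members (59.5%), against 38.2% of all genes. Of the 8 members called in the liver, all of which had a window, 1 held the ARE core, 2 held CCAAT and 3 held GGGCGG. A match to these letters is a description of the sequence and not evidence of binding.

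Total counts ran from 25965699 to 62097636 per mouse, and mice of a group differed by more than sampling noise in all 20 pairs, so no library was counted as a repeat sequencing of another. Levels within a gene are given as counts per 1000000 of the scaled total (CPM). The libraries of saline mouse 5 and CD95-Ab mouse 4 stood apart in a way that touches these genes. In both, short proteasome transcripts were high and long ones low relative to the group mean, with a Spearman rho between deviation and transcript length of -0.706 and -0.745 over the 44 members. In the other 8 mice rho ran from -0.06 to 0.62. Over all 13719 genes rho was -0.310 in saline mouse 5 and -0.427 in CD95-Ab mouse 4, and ran from -0.06 to 0.35 in the other 8 mice, with the highest value in CD95-Ab mouse 5. Psmb5 and Psmb6, short transcripts, were highest in these mice of each group.

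**Figure D1:**
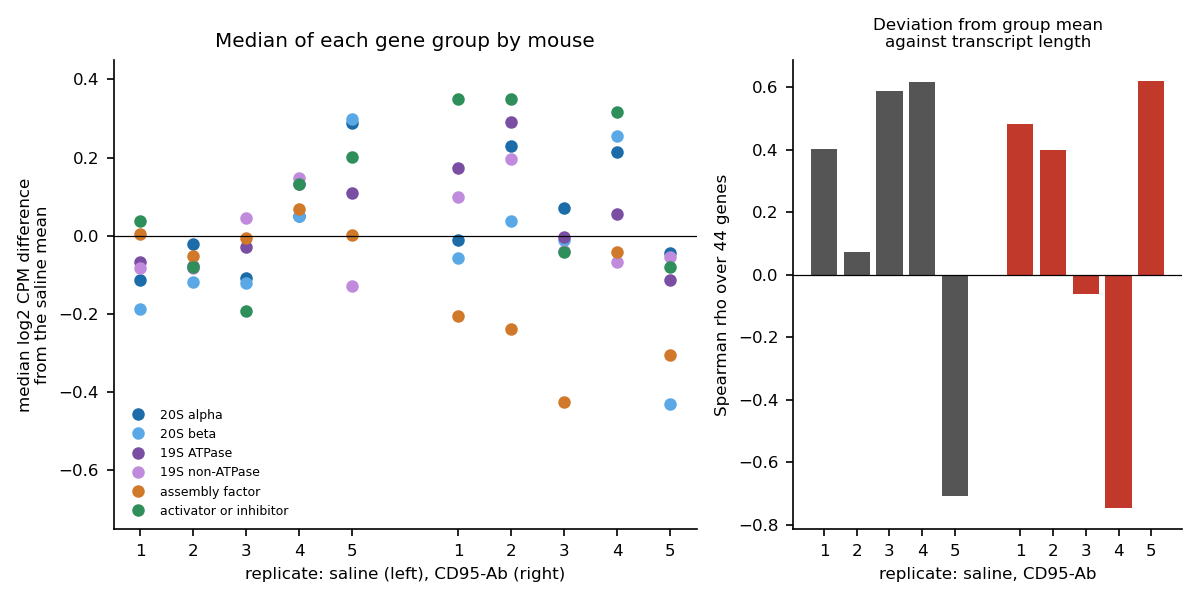
Left, median over each group of genes of the log2 CPM difference from the saline mean (vertical axis) in each mouse, with assembly factors (orange) from -0.43 to -0.04 in the CD95-Ab mice. Right, Spearman rho between the deviation of a gene from its group mean and its transcript length in each mouse over 44 members, lowest in saline mouse 5 at -0.706 and CD95-Ab mouse 4 at -0.745.

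Of the 45 members, 44 had enough counts to be tested. In the livers of mice injected with CD95-Ab, 4 of the 44 were higher (Psmd10, Psme3, Psmd8 and Psma5) and 4 were lower (Psmd9, Psmf1, Psmg3 and Psmg1) at an adjusted p of 0.05 or less. Because whole liver was sequenced, fewer cells of a type and less RNA per cell cannot be told apart. Calls were made with the quasi-likelihood test of edgeR with Benjamini-Hochberg adjustment over all 13719 genes tested. The 8 members are 18.2% of those tested, while 47.3% of all genes tested were called, with 25.4% higher and 22.0% lower. The median log2 fold change of the members was 0.03, and that of all genes tested was 0.01. The median size of the change, regardless of direction, was 0.15 for the members and 0.48 for all genes on the log2 scale. A log2 fold change of 1 or more in either direction with a call was found for 1 member, Psmd10, and for 22.5% of all genes.

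A 95% interval within 0.5 of no change on the log2 scale was found for 25 of the 44 members (56.8%) and for 15.3% of all genes tested. Because intervals are narrower for abundant genes, the 2035 tested genes whose mean level lay in the range of the 20S and 19S subunits were taken as a further background. Of these, 48.7% were called, 22.5% had an interval within 0.5 of no change, and the median size of the log2 fold change was 0.39. The range was set by the 31 tested 20S and 19S genes other than Psma8.

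Without saline mouse 5 and CD95-Ab mouse 4, a choice made after seeing the data, 4 members were higher and 5 lower, 7 of them shared with the fit of all mice, Psmd14 and Psmd5 were added, Psma5 was lost, and 51.5% of all genes were called. In the same fit 26 of the 32 tested 20S and 19S genes had an interval within 0.5 of no change (17.5% of all genes). It also held 8 members with groups that did not overlap (47.8% of all genes).

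**Figure D2:**
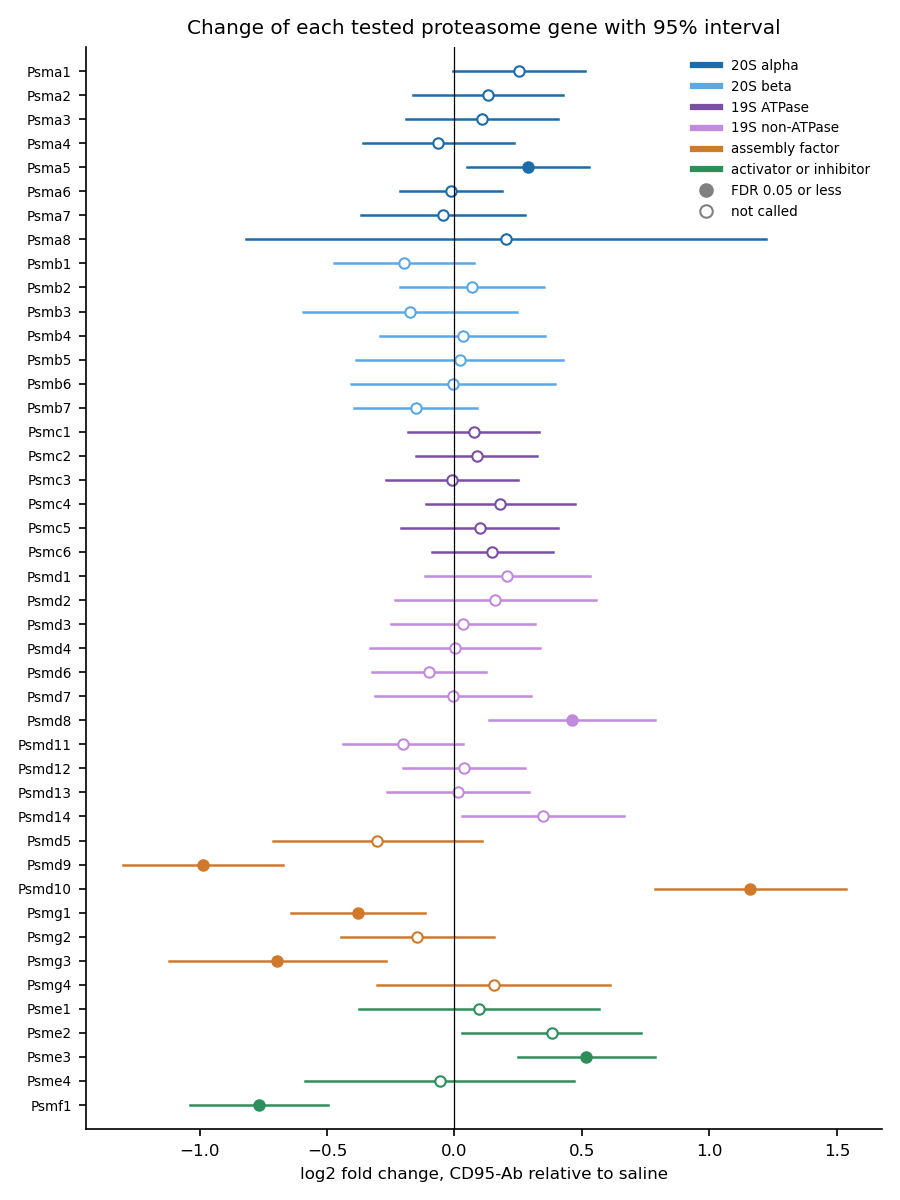
Log2 fold change (horizontal axis, CD95-Ab relative to saline) of the 44 tested members, ordered and coloured by their place in the proteasome. Lines are 95% intervals of the edgeR fit and filled points mark an adjusted p of 0.05 or less. The 20S and 19S subunits lie between -0.20 and 0.46, and the assembly factors spread from -0.99 to 1.16.

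The 20S subunits form the barrel. Of 8 alpha genes 1 was higher and none lower, with log2 fold changes from -0.06 to 0.29. Psma5, an alpha ring subunit on chr3:108256926-108279974, was the member called. It was measured at 50.7, 53.0, 48.9, 54.9 and 52.2 CPM in saline mice 1 to 5, and at 70.0, 73.0, 57.8, 61.3 and 54.9 CPM in CD95-Ab mice 1 to 5. CD95-Ab mouse 5 was level with the highest saline mouse, and the other CD95-Ab mice were above all saline mice. The means were 51.9 ± 2.29 and 63.4 ± 7.83 CPM (SD, n = 5 each), with a log2 fold change of 0.29 ± 0.11 (SE) and an adjusted p of 0.0479 in the edgeR fit. This call was lost in 18 of 22 alternative fits, in 9 of the 10 that leave out 1 mouse, with adjusted p up to 0.324. Psma8, the alpha subunit of the testis proteasome, was barely detected, at 0.41 ± 0.24 CPM in saline mice and 0.48 ± 0.25 CPM in CD95-Ab mice (SD, n = 5 each). Between 5 and 37 reads supported it in each mouse.

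None of the 7 tested beta genes was called, and their log2 fold changes ran from -0.20 to 0.07. Psmb11, the beta subunit of the thymus, had 0 to 3 counts per mouse and could not be tested. Psmb5, which carries the chymotrypsin-like site, was measured at 53.5, 52.4, 57.4, 69.5 and 88.2 CPM in saline mice and at 60.7, 68.7, 64.3, 85.1 and 46.7 CPM in CD95-Ab mice. The highest values were in saline mouse 5 and CD95-Ab mouse 4, and the groups overlapped over nearly their whole range. Psmb5 had a log2 fold change of 0.02 with a 95% interval from -0.39 to 0.42. Psmb6, with the caspase-like site, stood at 66.8, 70.5, 65.0, 76.8 and 106.2 CPM in saline mice and 72.8, 77.8, 75.2, 103.6 and 54.7 CPM in CD95-Ab mice. As with Psmb5, saline mouse 5 and CD95-Ab mouse 4 were highest and CD95-Ab mouse 5 lowest. Its log2 fold change was -0.01 (95% interval -0.41 to 0.40). Psmb7, with the trypsin-like site, stood at 90.8, 93.6, 105.7, 111.8 and 113.1 CPM in saline mice and 90.7, 99.1, 90.9, 99.9 and 83.1 CPM in CD95-Ab mice. Its groups overlapped, with a log2 fold change of -0.15 (95% interval -0.39 to 0.09). Psmb7 overlaps Nek6 on the opposite strand, and whether the library kept strand is not stated, so reads of both genes may not have been separated.

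The 6 ATPase genes of the 19S base unfold the substrate. None was called, their log2 fold changes lay between -0.01 for Psmc3 and 0.18 for Psmc4, and all 6 intervals stayed within 0.5 of no change. Among the 11 non-ATPase 19S genes 1 was higher and none lower, with a range of -0.20 to 0.46. Psmd8, a lid subunit on chr7:29174188-29180701, was measured at 67.2, 65.3, 76.2, 76.0 and 59.9 CPM in saline mice and at 108.9, 110.7, 103.7, 82.6 and 68.6 CPM in CD95-Ab mice. CD95-Ab mice 1 to 4 were above all saline mice, and CD95-Ab mouse 5 lay among them. For Psmd8 the log2 fold change was 0.46 ± 0.15 (SE), with an adjusted p of 0.0239 in the edgeR fit. The call was lost in 8 of the 22 alternatives, among them the fits without saline mouse 1 or 2 or without CD95-Ab mouse 1, 2 or 3, where the adjusted p ran from 0.0512 to 0.0643.

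Psmd14, the deubiquitinase of the lid, stood at 28.3, 28.1, 28.6, 42.3 and 40.8 CPM in saline mice and at 41.7, 47.9, 39.2, 44.2 and 40.7 CPM in CD95-Ab mice. Saline mice 4 and 5 were level with the CD95-Ab mice and the other saline mice were lower. The log2 fold change was 0.35 (95% interval 0.03 to 0.66) with an adjusted p of 0.0678 in the edgeR fit. Psmd11, a scaffold subunit of the lid, had the lowest log2 fold change among these genes, at -0.20 (95% interval -0.44 to 0.03, adjusted p = 0.145 in the edgeR fit). Its saline values ran from 73.7 to 85.2 CPM with a median of 81.4 CPM, and its CD95-Ab values from 60.0 to 79.6 CPM with a median of 69.9 CPM, so the groups overlapped. Together, 2 of the 32 tested 20S and 19S genes (6.25%) were called, and 24 of the 32 had an interval within 0.5 of no change.

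**Figure D3:**
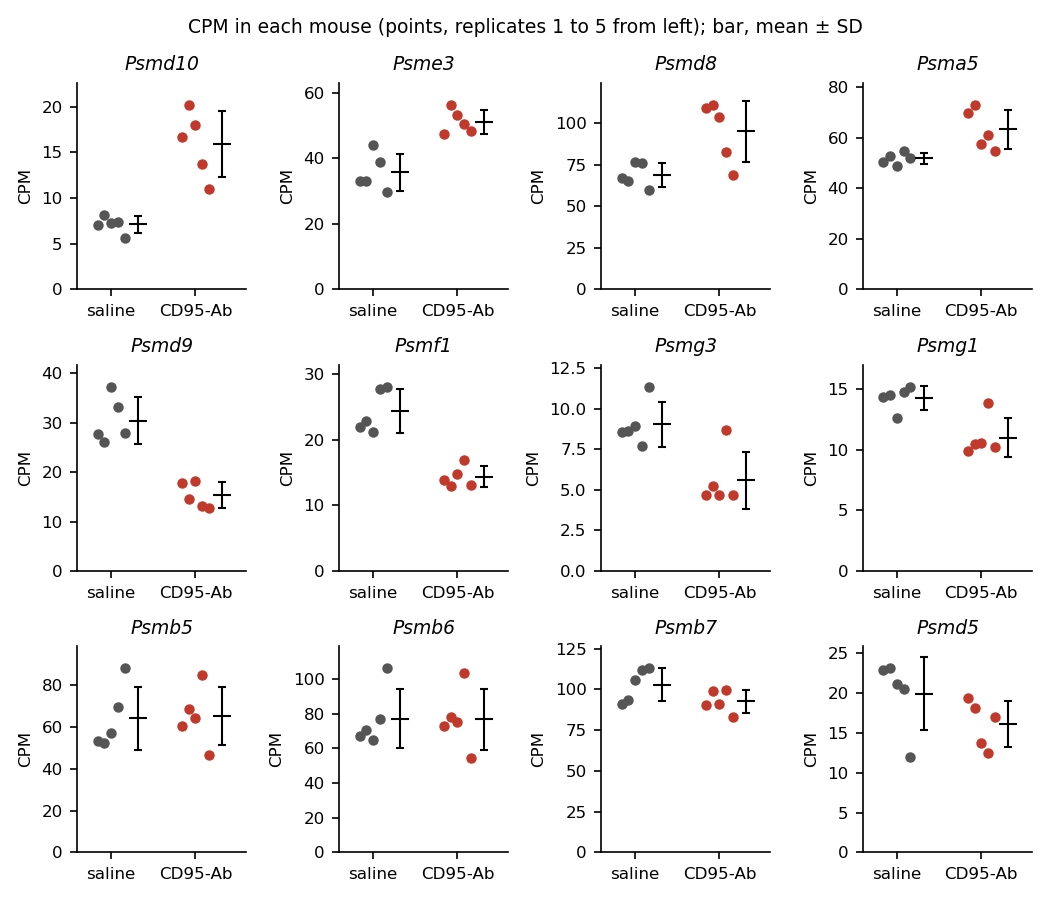
CPM (vertical axes, from 0) of 12 members in each saline mouse (grey) and each CD95-Ab mouse (red), with the mean and SD beside the points. Psmd10 and Psme3 separate upwards, Psmd9 and Psmf1 separate downwards, and the catalytic subunits Psmb5, Psmb6 and Psmb7 overlap.

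Of the 8 calls, 6 fell among the genes that build and regulate the complex. Of the 7 assembly factors 1 was higher and 3 were lower, and of the 5 activator and inhibitor genes 1 was higher and 1 was lower. These 6 calls in 12 genes are 50.0%, a share near the 47.3% of all genes tested. Over all members, 4 had groups that did not overlap in CPM (9.09% of 44, against 33.3% of all genes tested), Psmd10 and Psme3 above and Psmd9 and Psmf1 below. All 4 of these genes belong to the assembly factors or the regulators. Within those 12 genes they are 33.3%, the same share as over all genes tested. The same 4 were called in the same direction in all 22 alternatives, including an adjusted p limit of 0.01.

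Psmd10 encodes gankyrin, a chaperone of the ATPase ring that is also known as an oncoprotein of liver cancer, and lies on chrX:140948429-140956728. It was measured at 7.10, 8.18, 7.33, 7.43 and 5.60 CPM in saline mice 1 to 5 and at 16.7, 20.2, 18.0, 13.8 and 11.1 CPM in CD95-Ab mice 1 to 5. Every CD95-Ab mouse was above every saline mouse. The means were 7.13 ± 0.95 and 15.9 ± 3.59 CPM (SD, n = 5 each), a log2 fold change of 1.16 ± 0.17 (SE) with an adjusted p of 2.00e-04 in the edgeR fit. It was the only member whose level rose by more than 1 on the log2 scale, at 2.24 times the saline level (95% interval 1.73 to 2.90).

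Psmd9 encodes another chaperone of the ATPase ring, and lies on chr5:123169413-123250131. The stretch printed above, at chr5:123227940-123228189, falls inside this GENCODE span, so its RefSeq start is not the start of the span. Psmd9 was measured at 27.7, 26.1, 37.3, 33.3 and 28.0 CPM in saline mice and at 17.8, 14.7, 18.3, 13.2 and 12.8 CPM in CD95-Ab mice. All 5 CD95-Ab mice were below the lowest saline mouse. The mean fell from 30.5 ± 4.70 to 15.4 ± 2.55 CPM (SD, n = 5 each), with a log2 fold change of -0.99 ± 0.14 (SE) and an adjusted p of 1.89e-04 in the edgeR fit. These chaperones of the same ring moved in opposite directions in the same livers. Psmd5 encodes the other chaperone of this ring among the members. It stood at 22.9, 23.1, 21.1, 20.5 and 11.9 CPM in saline mice and at 19.4, 18.1, 13.7, 12.5 and 16.9 CPM in CD95-Ab mice. Saline mouse 5 was the lowest of all mice, and the other saline mice were above all CD95-Ab mice. The log2 fold change of Psmd5 was -0.30 (95% interval -0.71 to 0.11, adjusted p = 0.207 in the edgeR fit), and without saline mouse 5 it was -0.44 with an adjusted p of 0.0274.

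The 4 Psmg genes act in pairs on the alpha ring. Psmg1, on chr16:95979933-95990960, was measured at 14.4, 14.5, 12.6, 14.7 and 15.2 CPM in saline mice and at 9.88, 10.5, 10.6, 13.9 and 10.2 CPM in CD95-Ab mice. CD95-Ab mouse 4 lay among the saline mice and the other CD95-Ab mice were lower. The log2 fold change was -0.38 ± 0.12 (SE) with an adjusted p of 0.0217 in the edgeR fit, and without CD95-Ab mouse 1 or 2 the adjusted p was 0.0510 or 0.0534. Psmg2, the partner of Psmg1, ran from 8.20 to 10.9 CPM with a median of 8.39 CPM in saline mice and from 7.17 to 10.3 CPM with a median of 7.70 CPM in CD95-Ab mice. The groups overlapped, with a log2 fold change of -0.15 (95% interval -0.45 to 0.16).

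Psmg3, on chr5:139823592-139826885, was measured at 8.56, 8.66, 8.93, 7.70 and 11.4 CPM in saline mice and at 4.72, 5.22, 4.70, 8.72 and 4.67 CPM in CD95-Ab mice. Again CD95-Ab mouse 4 lay among the saline mice and the other 4 were below them. The log2 fold change of Psmg3 was -0.70 ± 0.20 (SE) with an adjusted p of 0.0116 in the edgeR fit. Psmg4, which acts with Psmg3, ran from 3.64 to 6.08 CPM with a median of 4.09 CPM in saline mice and from 3.85 to 7.35 CPM with a median of 4.30 CPM in CD95-Ab mice. Its groups overlapped, with a log2 fold change of 0.15 (95% interval -0.30 to 0.61). Each pair thus held 1 gene that fell and 1 that was not called. Whether the members of a pair differed from each other was not tested.

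Among the regulators, Psme3 was higher and Psmf1 lower. Psme3, on chr11:101316213-101323537, was measured at 33.2, 33.1, 44.0, 38.8 and 29.6 CPM in saline mice and at 47.5, 56.2, 53.3, 50.3 and 48.3 CPM in CD95-Ab mice. Every CD95-Ab mouse was above every saline mouse. The means were 35.7 ± 5.67 and 51.1 ± 3.60 CPM (SD, n = 5 each), a log2 fold change of 0.52 ± 0.12 (SE) with an adjusted p of 0.00461 in the edgeR fit. Psmf1, on chr2:151715812-151744186, was measured at 21.9, 22.9, 21.1, 27.8 and 28.1 CPM in saline mice and at 13.8, 12.9, 14.8, 16.9 and 13.2 CPM in CD95-Ab mice. All CD95-Ab mice were below all saline mice. The means were 24.4 ± 3.31 and 14.3 ± 1.62 CPM (SD, n = 5 each), a log2 fold change of -0.77 ± 0.12 (SE) with an adjusted p of 3.82e-04 in the edgeR fit.

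Psme2, which forms PA28 with Psme1, was measured at 72.4, 80.4, 52.5, 61.8 and 78.5 CPM in saline mice and at 94.3, 106.3, 87.6, 97.7 and 64.5 CPM in CD95-Ab mice. CD95-Ab mouse 5 lay among the saline mice and the other CD95-Ab mice were above them. Its log2 fold change was 0.38 (95% interval 0.03 to 0.73, adjusted p = 0.0704 in the edgeR fit), and without CD95-Ab mouse 5 it was 0.48 with an adjusted p of 0.0194. Psme1 ran from 52.9 to 115.1 CPM with a median of 91.0 CPM in saline mice and from 64.1 to 103.7 CPM with a median of 101.4 CPM in CD95-Ab mice. For Psme1 the log2 fold change was 0.10 with an interval from -0.37 to 0.57. Psme4 ran from 55.8 to 128.0 CPM with a median of 93.2 CPM in saline mice and from 51.5 to 109.3 CPM with a median of 104.0 CPM in CD95-Ab mice. Its log2 fold change was -0.06 with an interval from -0.58 to 0.47.

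Marker genes of several cell types differed between the groups in the same libraries. The sum of 7 hepatocyte markers was 102900 to 127500 CPM in saline mice and 45660 to 81760 CPM in CD95-Ab mice, with 3 lower. Of the neutrophil, T and NK cell, endothelial and erythroid markers that were tested, 6 of 6, 5 of 6, 5 of 6 and 5 of 5 were higher. Summed neutrophil markers ran from 4.08 to 10.6 CPM in saline mice and from 108.8 to 434.5 CPM in CD95-Ab mice, and erythroid markers from 134.9 to 323.4 CPM and from 1064 to 33990 CPM. Of 7 Kupffer cell and macrophage markers 3 were higher. No marker was at 0 in all mice. The part of cell makeup in the changes of Psmd10, Psmd9, Psme3 and Psmf1 was not tested.

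Levels of different genes were compared as FPKM, which is scaled for transcript length. In saline mice the 31 20S and 19S genes other than Psma8 and Psmb11 lay within a range of 4.46 times, from 23.8 FPKM for Psmd14 to 106 FPKM for Psmb6, with a median of 52.3 FPKM. With CPM divided by the annotated exon length the range was 6.91 times, from Psmd1 to Psmb5, so the end members depend on the length used. The 3 members with the highest mean were Psmb6 (106 ± 12.2 FPKM), Psmb4 (105 ± 5.70 FPKM) and Psmb1 (97.7 ± 3.09 FPKM, SD, n = 5 each), which differed by less than the spread of Psmb6. Assembly factors were less abundant, from 5.45 ± 1.19 FPKM for Psmd10 to 15.1 ± 1.64 FPKM for Psmg1. After Psma8, Psmd10 was the tested member with the lowest saline level, followed by Psmg2 at 9.19 ± 1.18 FPKM. In CD95-Ab mice Psmd10 reached 11.4 ± 3.01 FPKM, and Psmd9 stood at 5.93 ± 1.36 FPKM after 12.4 ± 2.07 FPKM in saline mice. The order of the 2 chaperones was thus turned in FPKM, but it depends on the length used. The length behind the FPKM of Psmd9 was 2541 bases, while its annotated exon length was 7248 bases. Among the 31 20S and 19S genes the rank order of the levels in the 2 groups had a Spearman rho of 0.974 across genes, which share the libraries and are not independent.

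**Figure D4:**
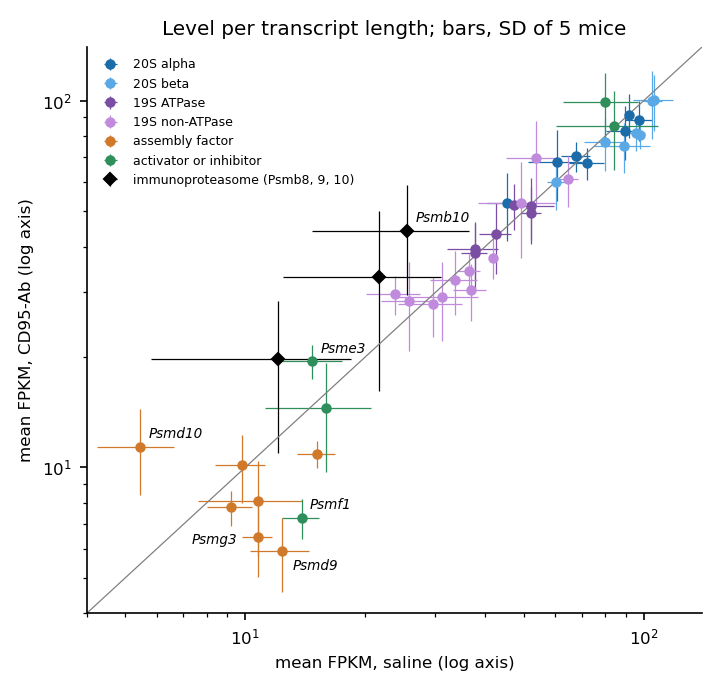
Mean FPKM in CD95-Ab mice (vertical log axis) against mean FPKM in saline mice (horizontal log axis), with bars for the SD of 5 mice and a line of equal level. The 20S and 19S genes lie along the line, while Psmd10 and Psme3 lie above it and Psmd9, Psmf1 and Psmg3 below it. Psma8 and Psmb11, both near 0, are not drawn.

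The immunoproteasome genes, outside the rule, encode inducible catalytic subunits that replace Psmb5, Psmb6 and Psmb7, and they varied more between mice than the subunits they replace. Psmb10 was measured at 36.7, 42.4, 18.4, 22.1 and 27.4 CPM in saline mice and at 59.1, 72.5, 55.0, 62.7 and 26.6 CPM in CD95-Ab mice. CD95-Ab mouse 5 lay among the saline mice and the other 4 were above them. The log2 fold change of Psmb10 was 0.91 ± 0.28 (SE) with an adjusted p of 0.0186 in the edgeR fit. This adjusted p was 0.0544 without saline mouse 4 and 0.0678 without saline mouse 5 and CD95-Ab mouse 4 together. Without normalization factors it was 0.0506, and at a limit of 0.01 the call was also lost. Psmb8 and Psmb9 had log2 fold changes of 0.65 and 0.75 with adjusted p of 0.0763 and 0.0923. Both were called without saline mouse 2 (adjusted p = 0.0433 and 0.0291) and without CD95-Ab mouse 5 (adjusted p = 0.0278 and 0.0324). The FPKM ratio of each inducible gene to its constitutive counterpart was compared within mice, in 3 comparisons. The mean ratio of Psmb10 to Psmb7 was 0.267 ± 0.115 in saline mice and 0.534 ± 0.143 in CD95-Ab mice (SD, n = 5 each, exact two-sided permutation p = 0.0238, adjusted p = 0.0714). For Psmb9 to Psmb6 it was 0.114 ± 0.0577 and 0.192 ± 0.0694 (exact permutation p = 0.0714, adjusted p = 0.107, n = 5 each). For Psmb8 to Psmb5 it was 0.280 ± 0.138 and 0.421 ± 0.177 (exact permutation p and adjusted p = 0.183, n = 5 each). All 3 mean ratios were higher after CD95-Ab, and none passed the adjusted limit. Psmb8 and Psmb9 have longer transcripts (1285 and 1264 bases) than Psmb5 and Psmb6 (814.5 and 738.7 bases). Psmb8 to Psmb5 was lowest within its group in saline mouse 5 and CD95-Ab mouse 4, whose deviations followed length. Psmb9 to Psmb6 was lowest in saline mouse 3 and CD95-Ab mouse 5. The part of transcript length in these ratios was not tested.

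**Figure D5:**
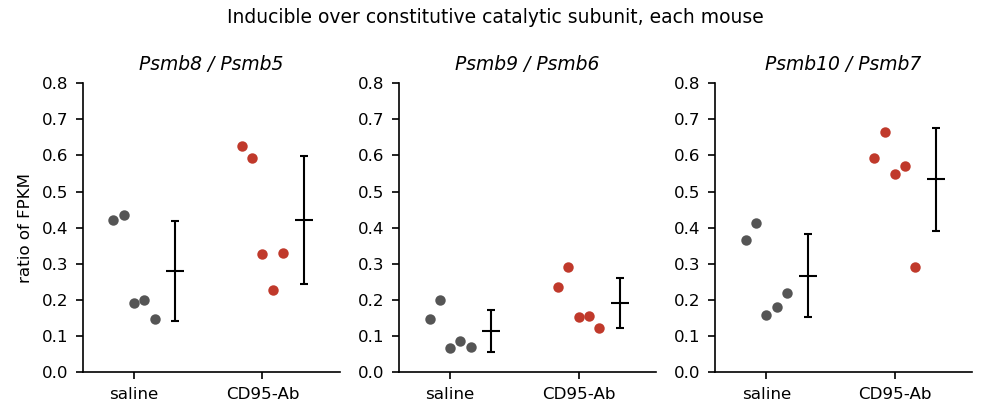
Ratio of the FPKM of an inducible catalytic subunit to that of its constitutive counterpart (vertical axes, from 0) in each saline mouse (grey) and CD95-Ab mouse (red), with mean and SD. In all 3 panels saline mice 1 and 2 have the highest saline ratios and reach into the range of the CD95-Ab mice.

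Genes that work with the proteasome were taken from a list of 36, of which 35 were matched (Paaf1 was not) and 34 tested. Of the 34, 6 were higher and 1 was lower (20.6%, against 47.3% of all genes tested). Subunits and a maturation factor whose symbols fall outside the rule were not called. The log2 fold change was 0.08 (95% interval -0.21 to 0.36) for Pomp, which completes the core. It was 0.07 (-0.26 to 0.40) for Adrm1, a ubiquitin receptor, and 0.02 (-0.37 to 0.40) for Sem1, a small lid subunit. Nfe2l1 stood at 81.8 ± 17.0 CPM in saline mice and 82.5 ± 12.7 CPM in CD95-Ab mice (SD, n = 5 each), with a log2 fold change of 0.01 (95% interval -0.35 to 0.38). Ddi2, the protease that activates its product, was the gene that fell, from 178 ± 27.3 to 121 ± 18.0 CPM, with a log2 fold change of -0.55 ± 0.15 (SE) and an adjusted p of 0.00832 in the edgeR fit.

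Nfe2l2, the related factor of the oxidative stress response, was measured at 53.6, 60.3, 44.5, 49.2 and 58.7 CPM in saline mice and at 95.3, 104.4, 105.8, 148.9 and 118.7 CPM in CD95-Ab mice. All CD95-Ab mice were above all saline mice, with a log2 fold change of 1.11 ± 0.15 (SE) and an adjusted p of 8.63e-05 in the edgeR fit. Zfand5 and Zfand2a, stress-induced zinc finger proteins that bind the 26S proteasome, rose with log2 fold changes of 1.43 and 1.15 (adjusted p = 8.35e-04 and 5.84e-04). In Zfand5 the increase was uneven: CD95-Ab mouse 1 stood at 47.5 CPM, among the saline mice at 35.8 to 53.5 CPM, and the other 4 between 106.9 and 144.1 CPM. The ubiquitin gene Ubb had a log2 fold change of 0.30 (95% interval -0.08 to 0.67). The ubiquitin-activating enzyme gene Uba6 and the conjugating enzyme gene Ube2d3 rose with log2 fold changes of 0.99 and 0.29 (adjusted p = 0.0111 and 0.0309 in the edgeR fit). Both calls were lost in limma on FPKM and at an adjusted p limit of 0.01. The call of Ube2d3 was also lost in other alternative fits, among them upper quartile scaling. Uba1 stood at 0.15 (95% interval -0.22 to 0.52). Of the deubiquitinases of the 19S particle, Usp14 stood at 0.25 (adjusted p = 0.0659) and Uchl5 at -0.25 (adjusted p = 0.0903). Vcp, the unfoldase that delivers substrates, stood at 0.11 (95% interval -0.24 to 0.46).

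Assignment of reads to near-identical copies was checked for every member. Copies of at least 200 bases at 90% identity or more lie elsewhere in the genome for 15 members, and in Psma3 alone did they hold 1% or more of the shared counts, at 13.7%. The values of Psma3 are therefore uncertain. Overlapping genes on the opposite strand with sizeable counts were found for Psmb7 (Nek6), Psmd13 (Sirt3), Psme1 (Emc9) and Psmc3 (Slc39a13), none of which was called.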

How the data were processed

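Liver RNA of 10 mice (5 per group) was sequenced as paired reads of 100 bases from TruSeq libraries, 1 library per mouse. The authors ran RSEM 1.2.19 to assign the reads to genes. Its expected counts, deposited as whole numbers, carry no normalization and were used for every test between groups. The deposited FPKM values, which RSEM corrects for the length of transcripts and the size of the library, served for levels and ratios. RSEM shares reads that fit several genes, so copies and overlapping genes depend on that step, and BLAST 2.17.0 was used to find copies. The study's methods name a human Gencode release, although the identifiers are mouse Ensembl genes, and the mouse annotation and genome build are not given in the sources used here. Symbols and positions came from GENCODE mouse release 21 (GRCm38), and promoter windows from RefSeq (GRCm38.p6). No window was given for Psmd3, Psmb2, Psmb1, Psmg2, Psmb7, Psma8, Psmd7 and Psmc3.

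Genes were kept by filterByExpr with a minimum count of 10, scaled by TMM and fitted in edgeR 4.0.16 (R 4.3.3). Group was the sole term of the quasi-likelihood test, and p-values were adjusted by Benjamini-Hochberg. Each SE was derived from the F statistic of this test. CPM are counts per 1000000 of the TMM-adjusted total. Ratios were compared with an exact two-sided permutation test on log2 values. Alternatives used DESeq2 1.42.0, limma 3.58.1 on log2(FPKM + 0.1), other scalings, filters and limits, a replicate block and leaving out mice. The code was tested on simulated counts. Named members were the 6 largest and 6 smallest log2 fold changes, the catalytic, regulatory and assembly genes, and the highest and lowest FPKM levels. The values of 1 gene of the partner list, which enters the counts, are not reported here. The members and lists were chosen with earlier results of these data known. Totals of 25965699 to 62097636 counts put 3 counts at 0.0483 to 0.116 CPM, which covers counting error only.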

Additional observations from a re-analysis of the deposited data

Results flagged for a closer look

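Of 78 sets of 5 values examined (a named gene in a group), 7 held a mouse that stood apart from the other 4 by Dixon's criterion at 95%, which chance gives in about 1 of 20 sets. In CD95-Ab mouse 4 these were Psmg3 at 8.72 CPM (the others 4.67 to 5.22), Psmg1 at 13.9 CPM (9.88 to 10.6) and Psmg2 at 10.3 CPM (7.17 to 7.72), 3 of the 4 alpha ring assembly factors. In saline mouse 5 they were Psmd5 at 11.9 CPM (20.5 to 23.1), Psmb6 at 106.2 CPM (65.0 to 76.8) and Sem1 at 66.0 CPM (39.5 to 45.8). In saline mouse 4 it was Psmg2 at 10.9 CPM (8.20 to 8.90). CD95-Ab mouse 4 and saline mouse 5 are the libraries whose deviations followed transcript length most over the 44 members, and the part of this in the values was not tested.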

How the results depend on the processing

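Across 22 alternatives Psmd10 and Psme3 remained higher and Psmd9 and Psmf1 lower, while the number of members called ran from 4 to 10. The 4 were found at an adjusted p limit of 0.01, where 32.7% of all genes were called. The 10 were found with principal component 2 in the model, where 55.9% of all genes were called. The count of higher members (4) was 2 without normalization factors, in limma on FPKM and at an adjusted p limit of 0.01, and the count of lower members (4) was 2 at that limit. Members past a log2 fold change of 1 (1) numbered 2 with upper quartile scaling, without factors, without the count filter and in limma on FPKM. Partner genes that were lower (1) numbered 3 in DESeq2, 4 with upper quartile scaling, 2 without the filter, 2 in limma on FPKM, 2 without saline mouse 5 and CD95-Ab mouse 4, and 3 with principal component 2 added to the model, and those higher (6) numbered 3 at the limit of 0.01. Members whose groups did not overlap (4) numbered 8 without both mice (47.8% of all genes), a choice made, like the added component, after seeing the data. The ratio of highest to lowest level (4.46) was 6.91 with exon length. The cause of these shifts was not tested.

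Leaving out each mouse in turn gave 2 to 5 higher and 3 to 5 lower members, 1 to 2 past a log2 fold change of 1, 4 to 7 without overlap, and 5 to 7 partner genes higher and 1 to 3 lower. In the same fits 40.5% to 49.9% of all genes tested were called. With a mouse fewer, groups separate more easily for any gene. The share of all genes without overlap is not given for these fits, so the 4 to 7 cannot be set against it. Higher members numbered 2 without saline mouse 1 or 2 or CD95-Ab mouse 1, 2 or 3, members past 1 numbered 2 (Psmd9 added) without saline mouse 1, 2 or 5 or CD95-Ab mouse 1 or 3, and members without overlap 7 without CD95-Ab mouse 4 or 5. Lower partner genes numbered 2 without saline mouse 4 or 5 or CD95-Ab mouse 4 or 5, and 3 without CD95-Ab mouse 3. For named genes 798 of 857 comparisons kept their direction and side of the limit, 24 gained and 35 lost a call, and none of the called values changed sign. Direction was taken as defined only where a call was made: of 500 comparisons with no call in either fit, 52 changed sign.

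Same-numbered mice did not deviate together, with correlations above 0.1 in 2 of 5 pairs and a mean of 0.037, so the numbers were not taken to pair the mice. With a replicate block 3 members were higher (Psma5 was lost) and 4 lower, and 43.6% of all genes were called. Psmb8 and Psmb9 reached adjusted p of 0.0132 and 0.0231 with the block. Depth limits Psmb11 (not tested) and Psma8.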
